A study of Mus musculus with 7 samples.

Results

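The ligands of the chemokine receptor CXCR3 are 3 secreted proteins encoded by Cxcl9, Cxcl10 and Cxcl11, and their transcripts were followed in macrophages taken from tumors with and without Dicer1. The 3 genes were found by their Ensembl identifiers among the 24084 genes that the deposited files list in at least 1 library, and all 3 were listed in every library. The cells were tumor-associated macrophages, sorted on the surface marker F4/80 from subcutaneous Lewis lung carcinomas, which are tumors of a mouse lung cancer cell line. In 3 libraries, called Dicer1-deleted here, the mice were LysM-Cre;Dicer-/- (D-/-), with both the LysM-Cre and the Dicer lox alleles homozygous. In 4 control libraries they were LysM-Cre;Dicer+/+ (D+/+), which carry the same homozygous Cre and an intact Dicer1. The Cre sits in the lysozyme M locus, so it is active in macrophages and also in neutrophils, and neither group is free of it. The labels give neither age nor strain, and they leave unsaid whether a library is 1 animal, so the p-values here cover only the spread from library to library, which may be technical.

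CXCL9, CXCL10 and CXCL11 attract activated T cells and natural killer cells, which carry CXCR3. Interferon-gamma is their classical inducer. Cxcl10 also answers to type I interferon and to NF-kB, while Cxcl9 depends more narrowly on interferon-gamma. In tumors, macrophages and dendritic cells are known sources of these chemokines. Dicer1 encodes the ribonuclease that makes mature microRNAs from their precursors, and microRNAs lower the level of transcripts with matching sites.

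The 3 genes lie side by side on the minus strand of chromosome 5 in the GRCm38 build, with Cxcl9 at chr5:92321347-92328079, Cxcl10 at chr5:92346638-92348889 and Cxcl11 at chr5:92359544-92365485 (GENCODE release for mouse). Cxcl10 and Cxcl11 lie wholly inside Art3, a gene of the plus strand. Cxcl11 has no single coding status. The annotation calls it a polymorphic pseudogene, RefSeq a transcribed pseudogene, and the deposited files a processed transcript. C57BL/6 mice are known to carry a reading-frame shift in this gene and to make no CXCL11 protein. The start of the coding sequence at chr5:92363155-92363214 (minus strand) is printed to show where the 2 annotated transcript models part. The capitals are the 2 bases, positions 37 and 38 from the first base of the start codon, that the genome has and that the protein-coding model leaves out.
Cxcl11 coding start: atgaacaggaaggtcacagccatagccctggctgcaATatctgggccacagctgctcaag
The deposited reads and RPKM values (reads per kilobase, scaled to the library total) of Cxcl11 imply a counted length of 3794 nt. That is the length both of the model that keeps those 2 bases and of all its annotated exons joined, so it does not tell which model was counted. The lengths implied for Cxcl9 and Cxcl10, 2905 and 1520 nt, match no model of the annotation used here. Values for Cxcl11 are transcript levels of a gene whose protein may be absent.

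The 250 bases before the transcription start of Cxcl9 and Cxcl10, from RefSeq on GRCm38.p6, are printed because the known inducers act there. A window was matched for 2 of the 3 genes. In both, capitals mark the 11-base stretch CAGCCAATCAG, the longest that the 2 windows share. In Cxcl10 the 3 further runs of capitals mark, from the left, 1 interferon-stimulated response element (ISRE, searched as GAAA, any 2 bases and GAAA again) and 2 places that match the NF-kB consensus.
Cxcl9, chr5:92328080-92328329, minus strand: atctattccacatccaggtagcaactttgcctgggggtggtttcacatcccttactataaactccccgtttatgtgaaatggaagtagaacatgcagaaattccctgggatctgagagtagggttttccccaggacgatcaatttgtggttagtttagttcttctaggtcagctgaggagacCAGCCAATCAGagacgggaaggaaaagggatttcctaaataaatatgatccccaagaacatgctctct
Cxcl10, chr5:92348890-92349139, minus strand: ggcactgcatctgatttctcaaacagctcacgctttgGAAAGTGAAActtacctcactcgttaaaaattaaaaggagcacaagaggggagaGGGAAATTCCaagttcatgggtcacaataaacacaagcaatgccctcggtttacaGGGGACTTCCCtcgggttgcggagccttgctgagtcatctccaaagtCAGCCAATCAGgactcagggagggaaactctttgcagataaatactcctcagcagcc
Both strands were searched over windows that run on to 50 bases past the start. The ISRE of Cxcl10 began 213 bases before the start, and 3.489% of 27025 RefSeq promoter windows of the same length hold one. The NF-kB matches of Cxcl10 began 159, 104 and 103 bases before the start, the last 2 overlapping, and 8.181% of windows hold a match. An ISRE and an NF-kB match together occurred in 0.2405% of windows. The Cxcl9 window held neither of these in the form searched, nor the STAT site TTCNNNGAA, which 8.466% of windows hold. The Cxcl10 window did not hold that STAT site either. The NF-kB consensus was searched only as GGGRNNYYCC (R is A or G, Y is C or T, N is any base). Looser forms of it were not searched. The mouse Cxcl9 promoter is known for an interferon-gamma response element of another form, which was not searched. The shared stretch, which contains a CCAAT box, began 68 bases before the start in Cxcl9 and 57 in Cxcl10, and 0.84% of windows hold it. These matches describe letters and not binding.

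Cxcl9, Cxcl10 and Cxcl11 transcripts were all more abundant in every Dicer1-deleted library (n = 3) than in any control library (n = 4). The mean level in CPM (read counts made comparable between libraries by TMM scaling) was 4.54 times as high for Cxcl9, 2.69 times for Cxcl10 and 3.66 times for Cxcl11. DESeq2 called all 3 higher at an adjusted p of 0.05, where 0.925% of all genes tested were called higher. The main test, edgeR's quasi-likelihood test adjusted over 16226 genes, called none of the 3, and it called only 0.00616% of genes, which is 1 gene, higher. At an unadjusted p of 0.05 in edgeR all 3 passed, with 3.88% of genes passing on the higher side. Groups that do not overlap, with the Dicer1-deleted libraries higher, occurred for 3.86% of genes. An exact two-sided permutation test over the 35 splits of 7 libraries gave p = 0.0571 for each of the 3, the smallest this design allows.

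Cxcl9, also known as MIG, had 311, 510 and 193 CPM in Dicer1-deleted replicates 1 to 3. In control replicates 1 to 4 it had 101, 77.2, 8.50 and 111 CPM. Control replicate 3 stood far below the other controls, whose mean was 11.4 times its level, and the lowest Dicer1-deleted library was 1.74 times the highest control. The group means were 338 ± 160 CPM with Dicer1 deleted, against 74.5 ± 46.2 CPM in controls (SD, n = 3 and 4). The log2 fold change was 2.18 ± 0.70 (SE), with an adjusted p of 0.368 in edgeR and 0.0471 in DESeq2. Leaving out replicate 1 or 2 of either group ended the DESeq2 call, with an adjusted p of up to 0.559, while the log2 fold change stayed between 1.75 and 2.50. Cxcl9 was the most variable of the 3 ligands, with a coefficient of variation of 47.4% in Dicer1-deleted and 62.1% in control libraries.

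Cxcl10, also known as IP-10, had 483, 837 and 406 CPM in the Dicer1-deleted libraries. The controls were close to each other at 231, 220, 187 and 217 CPM. Dicer1-deleted replicate 2 was again the highest library, and the lowest Dicer1-deleted value was 1.75 times the highest control. The means were 575 ± 230 and 214 ± 19.0 CPM (SD, n = 3 and 4), with coefficients of variation of 40.0% and 8.88%. The log2 fold change was 1.43 ± 0.30 (SE), with an adjusted p of 0.162 in edgeR and 0.00116 in DESeq2. The DESeq2 call was kept with each of the 7 libraries left out in turn, with log2 fold changes from 1.06, without Dicer1-deleted replicate 2, to 1.67. Fractional shares of multiply placed reads made up between 7.40% and 9.93% of the Cxcl10 count that includes them. Counting them left the log2 fold change at 1.42.

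Cxcl11, also known as I-TAC, was a low transcript, with 11.0, 12.6 and 7.04 CPM with Dicer1 deleted, against 2.68, 2.65, 3.43 and 2.42 CPM in controls. These levels rest on 106 to 532 uniquely placed reads a library. The groups were separated by a factor of 2.06 between the lowest Dicer1-deleted and the highest control library, the widest gap of the 3 ligands. The means were 10.2 ± 2.85 and 2.79 ± 0.439 CPM (SD, n = 3 and 4). The log2 fold change was 1.87 ± 0.30 (SE), with an adjusted p of 0.111 in edgeR and 6.5e-06 in DESeq2. DESeq2 called it with each library left out, with log2 fold changes from 1.70 to 2.11. Only 18 of all genes tested, or 0.111%, had an edgeR p at or below that of Cxcl11, against 100 genes (0.616%) for Cxcl10 and 510 genes (3.14%) for Cxcl9.

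**Figure D1:**
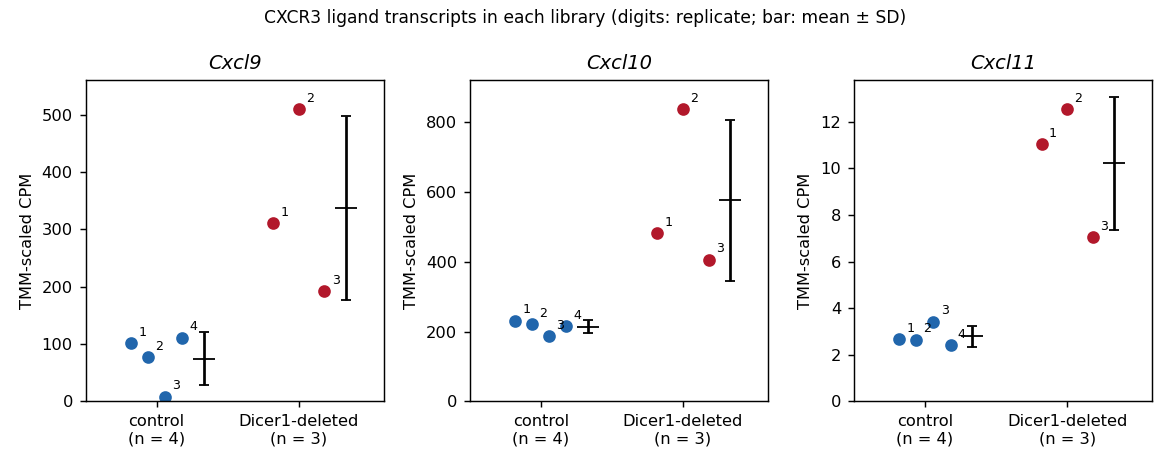
TMM-scaled CPM of Cxcl9, Cxcl10 and Cxcl11 in each library, with control libraries in blue and Dicer1-deleted libraries in red, digits giving the replicate and black bars the mean ± SD. All 3 Dicer1-deleted points sit above all 4 control points in each panel, with Dicer1-deleted replicate 2 highest and, for Cxcl9, control replicate 3 lowest at 8.50 CPM.

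Dicer1 itself had 7.85, 6.86 and 7.85 CPM in the Dicer1-deleted and 15.7, 15.8, 18.6 and 17.1 CPM in the controls. It had an edgeR estimate of -1.16 ± 0.23 on the log2 scale (SE, adjusted p = 0.150; DESeq2 adjusted p = 4.96e-05). A conditional allele deletes only some exons, and reads of the remaining exons still count. The counts are per gene and not per exon, so how complete the deletion was cannot be told and was not tested. Depth was 43.0 to 51.2 M uniquely placed reads. Adgre1, which encodes F4/80, and Csf1r, the receptor of the macrophage growth factor, were abundant in all 7 libraries, at 233 to 1072 and 494 to 809 CPM. Dicer1-deleted replicate 2 stood apart from the rest: its log2 CPM correlated at 0.925 across genes with the mean of the other libraries, against 0.957 to 0.965 for each of the others. It also had the largest share of mitochondrial reads, 3.08%, and the lowest Adgre1 level. Without it the log2 fold changes of Cxcl9, Cxcl10 and Cxcl11 were 1.74, 1.05 and 1.68 in edgeR. The titles carry an L code of 4 or 5, which the labels do not explain. Among libraries of code 4 (2 Dicer1-deleted, 1 control) the log2 differences were 2.02, 1.40 and 1.82 for Cxcl9, Cxcl10 and Cxcl11, and among those of code 5 (1 and 3) they were 2.76, 1.20 and 1.97.

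Per transcript length, Cxcl10 was the most abundant of the ligands and Cxcl11 the least in both groups. In the authors' deposited RPKM values, Cxcl10 had a mean of 139 ± 9.09 in control and 351 ± 98.1 in Dicer1-deleted libraries (SD, n = 4 and 3). Cxcl9 had 25.0 ± 15.7 and 107 ± 39.4 RPKM. Cxcl11 had 0.733 ± 0.148 and 2.53 ± 0.547 RPKM. The ranges of the 3 ligands did not overlap each other within either group. Among 14 CXC chemokines ranked by mean RPKM, Pf4 and Ppbp included, Cxcl10 had rank 6 in the controls and rank 5 in the Dicer1-deleted libraries, Cxcl9 had rank 8 in both, and Cxcl11 had ranks 12 and 10. The neighbours of Cxcl10 in this order were the neutrophil attractants Cxcl3 and Cxcl1 in Dicer1-deleted libraries, at 244 to 681 and 173 to 372 RPKM, both overlapping the 274 to 461 RPKM of Cxcl10. The neighbour below Cxcl9 was Cxcl5, at 1.73 to 28.2 RPKM in the controls, which overlapped the 3.06 to 38.0 RPKM of Cxcl9 there.

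The 3 ligands did not keep fixed proportions to each other across libraries. The log2 ratio of Cxcl10 to Cxcl9 reads was 0.64, 0.72 and 1.07 in Dicer1-deleted libraries and 1.20, 1.51, 4.46 and 0.96 in controls. Control replicate 3 gave the value of 4.46, since its Cxcl9 was low while its Cxcl10 was near that of the other controls. The groups overlapped, and the mean difference of -1.22 did not pass an exact permutation test (two-sided p = 0.114, adjusted over the 3 ratios 0.257). Without control replicate 3 that difference was -0.42. For Cxcl11 to Cxcl10 the difference was 0.47, with ranges of -6.06 to -5.45 in Dicer1-deleted and -6.47 to -5.76 in control libraries (exact permutation p = 0.171, adjusted 0.257). For Cxcl11 to Cxcl9 the difference was -0.75 (exact permutation p = 0.914, adjusted 0.914), and without control replicate 3 it turned to 0.22 (exact permutation p = 0.500).

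**Figure D2:**
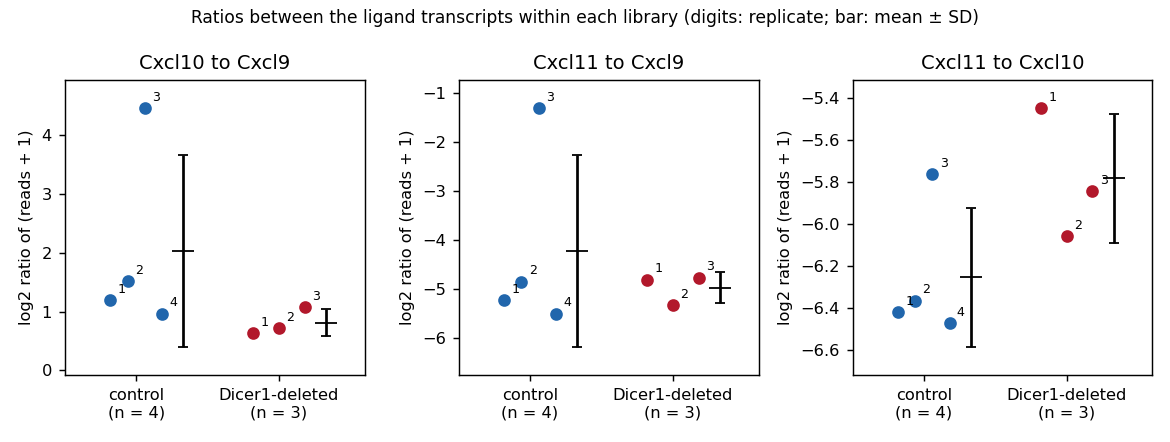
Log2 ratios between the read counts (plus 1) of pairs of ligands within each library, control in blue and Dicer1-deleted in red, digits giving the replicate and black bars the mean ± SD. Control replicate 3 stands alone in both ratios to Cxcl9, at 4.46 and -1.31, and the groups overlap in all 3 panels.

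By likeness over the 7 libraries, the genes closest to Cxcl9 were not those closest to Cxcl10. Likeness was the root mean square difference of log2 CPM between 2 genes, each centred on its own mean, among 10803 genes. The 5 nearest to Cxcl9 were the actin-binding gene Cnn3 (0.54), the noncoding transcript AW112010 (0.60), the serine protease inhibitor Serpina3g (0.67), the endocytic adaptor Ston2 (0.67) and the guanylate-binding protein Gbp8 (0.74). All 5 had their lowest value in control replicate 3, as Cxcl9 did. Cxcl10 stood at rank 104 and Cxcl11 at rank 228 in this order. The 5 nearest to Cxcl10 were Lrmda (0.19), Ass1 (0.23), which encodes argininosuccinate synthase, the class I MHC gene H2-T10 (0.24), the B cell receptor component Cd79b (0.25) and the zinc exporter Slc30a1 (0.25). Among the 5 nearest to Cxcl11 were the nucleotidase Entpd6 (0.27), Parvg (0.35), Cxcl10 itself (0.36) and the integrin chain Itgal (0.36). Cxcl9 was at rank 9319 for Cxcl10 and 9348 for Cxcl11. Genes with a wide spread lie far from all others by this measure, and the spread of Cxcl9 over libraries was 1.76, against 0.74 for Cxcl10 and 0.95 for Cxcl11 on the same scale.

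The neighbours of the ligand genes on chromosome 5 were not called by edgeR or DESeq2. Within 100 kb, Sdad1, beside Cxcl9, stood at 0.07 ± 0.28 (log2 fold change ± SE), and Nup54, beyond Cxcl11, at -0.13 ± 0.33. Naaa and Scarb2, which encode lysosomal proteins, had 0.68 ± 0.53 and 0.76 ± 0.30, and the low genes Ppef2 and Gm23031 -1.42 ± 1.12 and 0.72 ± 1.37. Art3, which contains Cxcl10 and Cxcl11 on the other strand, had 3.07, 3.56 and 0.768 CPM with Dicer1 deleted, against 0.839 to 1.09 CPM in controls. The log2 fold change was 1.31 ± 0.52. The library kit keeps no strand, so reads of Art3 exons and of the chemokines cannot be told apart where they overlap. Gm2673, a pseudogene that overlaps Cxcl11, had 0 reads in all libraries.

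Of the receptors and the molecules that act on the ligands, 1 fell in DESeq2, where 1.57% of all genes tested were called lower, and none rose. CXCR3 itself had a transcript level of 4.23, 4.42 and 3.33 CPM with Dicer1 deleted, against 1.72, 2.56, 1.35 and 0.593 CPM in controls. The groups did not overlap, and the log2 fold change of Cxcr3 was 1.36 ± 0.47 (SE), with an adjusted p of 0.420 in edgeR and 0.140 in DESeq2, and of 0.0284 in DESeq2 without control replicate 2. ACKR3, a scavenger receptor that takes up CXCL11 and CXCL12, moved the other way. Ackr3 had 2.03, 1.78 and 7.64 CPM with Dicer1 deleted, against 19.7, 17.5, 30.3 and 37.7 CPM in controls. It fell by 2.78 on the log2 scale (SE 0.58, edgeR adjusted p = 0.156, DESeq2 adjusted p = 9.28e-05), and DESeq2 called it with each library left out. Dpp4, the peptidase that trims and inactivates these ligands, ranged from 0 to 6.56 CPM in the controls and from 1.11 to 2.57 CPM in the Dicer1-deleted libraries (log2 fold change -0.41 ± 1.18). Pf4 and Ppbp, chemokines best known from platelets, had log2 fold changes of 0.59 ± 0.61 and 0.70 ± 0.84, and DESeq2 called Ppbp higher only without control replicate 2, at a log2 fold change of 2.08. Ackr2, another scavenger receptor, was too low to test, with 0 CPM in all 4 controls and at most 0.332 CPM in Dicer1-deleted libraries.

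The other CXC chemokines did not move as a block. Of 7 tested, 4 had a log2 fold change above 0, with a median of 0.58 that turned to -0.33 without Dicer1-deleted replicate 2, where the median of all genes was 0.03 and 52.6% of genes lay above 0. DESeq2 called 1 of the 7, which was lower. That was Cxcl13, the B cell attractant, with 0.332, 0 and 0 CPM with Dicer1 deleted, against 4.19, 12.7, 26.4 and 2.28 CPM in controls (DESeq2 adjusted p = 0.0114). This call was lost without control replicate 1, 2 or 3, where the adjusted p reached 0.138. Cxcl5, a neutrophil attractant, was called higher without control replicate 2 (1.86, adjusted p = 0.0497). Cxcl16, the ligand of CXCR6, had 360, 668 and 579 CPM with Dicer1 deleted, against 284, 356, 193 and 329 CPM in controls, without overlap (log2 fold change 0.88 ± 0.32, DESeq2 adjusted p = 0.174).

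Among the cytokines that induce the ligands, Il27 rose in DESeq2, where 0.925% of all genes were called higher. Interferon-gamma was near the limit of detection. Il27 encodes a subunit of interleukin-27, a myeloid cytokine. It had 5.06, 9.04 and 2.60 CPM with Dicer1 deleted, against 0.797, 1.53, 0.729 and 1.37 CPM in controls. The log2 fold change was 2.33 ± 0.49 (SE). Its adjusted p was 0.156 in edgeR and 0.00115 in DESeq2, and 0.0532 in DESeq2 without Dicer1-deleted replicate 2. Il27 overlaps the end of Apobr on the opposite strand, so some of its reads may belong there. Ifng had 1.29, 0.152 and 0.427 CPM with Dicer1 deleted, against 0, 0.0449, 0 and 0.365 CPM in controls (log2 fold change 2.60 ± 1.39, DESeq2 adjusted p = 0.647). Dicer1-deleted replicate 2 had the highest level of all 3 ligands and the lowest Ifng of its group. That library was also least like the others across genes, and a link between Ifng and the ligands was not tested. Ifnb1, the type I interferon gene, had a log2 fold change of -0.54 ± 1.21. Il1b, an abundant inflammatory cytokine, had 2274 to 6709 CPM with Dicer1 deleted, against 1103 to 2447 CPM in controls (1.14 ± 0.43). Tnf, Il12b and Il18 had 0.29 ± 0.59, 0.08 ± 1.12 and -0.42 ± 0.35. Over the 7 cytokines tested the median log2 fold change was 0.29, and it was 1.02 without control replicate 3 and 1.28 with the L code as a covariate. Ifna4 and Il12a were too low to test, and Ifnl2 and Ifnl3 were not listed.

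Among the receptors and kinases between interferon and the ligand genes, DESeq2 called 0 of the 7 tested. In edgeR 1 passed an unadjusted p of 0.05, where 3.88% of all genes passed on the higher side. That gene was Ifngr2, the signaling chain of the interferon-gamma receptor, with 97.0, 103 and 107 CPM with Dicer1 deleted, against 62.3, 67.1, 74.3 and 67.4 CPM in controls. Its groups did not overlap, at a log2 fold change of 0.60 ± 0.22 (SE, DESeq2 adjusted p = 0.0526). Ifngr1, the ligand-binding chain, had -0.15 ± 0.41. The type I interferon receptor chains Ifnar1 and Ifnar2 had 0.48 ± 0.36 and 0.85 ± 0.39. The kinases Jak1, Jak2 and Tyk2 had 0.36 ± 0.23, -0.01 ± 0.24 and 0.11 ± 0.28.

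Of 13 transcription factors known to act on the ligand genes, 12 had a log2 fold change above 0, with a median of 0.16, and DESeq2 called 1. Over all genes, 52.6% lay above 0 with a median of 0.03, and DESeq2 called 0.925% higher. Irf8, a factor of myeloid cells that answers to interferon-gamma, had 55.5, 109 and 80.3 CPM with Dicer1 deleted, against 30.7, 42.3, 24.8 and 37.2 CPM in controls, without overlap. Its log2 fold change was 1.27 ± 0.30 (SE, edgeR adjusted p = 0.207, DESeq2 adjusted p = 0.0108), and DESeq2 no longer called it without Dicer1-deleted replicate 2 or 3 or control replicate 1 or 3. Irf1, which interferon-gamma induces, had 425, 243 and 263 CPM with Dicer1 deleted, against 154, 160, 111 and 313 CPM in controls (0.75 ± 0.39). Irf1 overlapped between groups through control replicate 4, and DESeq2 called it higher without that library (1.15, adjusted p = 0.0413). Irf1 was lowest among the Dicer1-deleted libraries in replicate 2, where the ligands were highest. That library was least like the others across genes, and a link between Irf1 and the ligands was not tested. Stat2, Irf7 and Irf9, which serve type I interferon, had 0.52 ± 0.33, 0.28 ± 0.37 and -0.08 ± 0.33. Irf3 and Irf5 had 0.16 ± 0.22 and 0.14 ± 0.24. The NF-kB subunits Rela, Relb, Rel, Nfkb1 and Nfkb2 lay between 0.00 ± 0.22 (Nfkb1) and 0.26 ± 0.34 (Nfkb2), each smaller than its error.

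**Figure D3:**
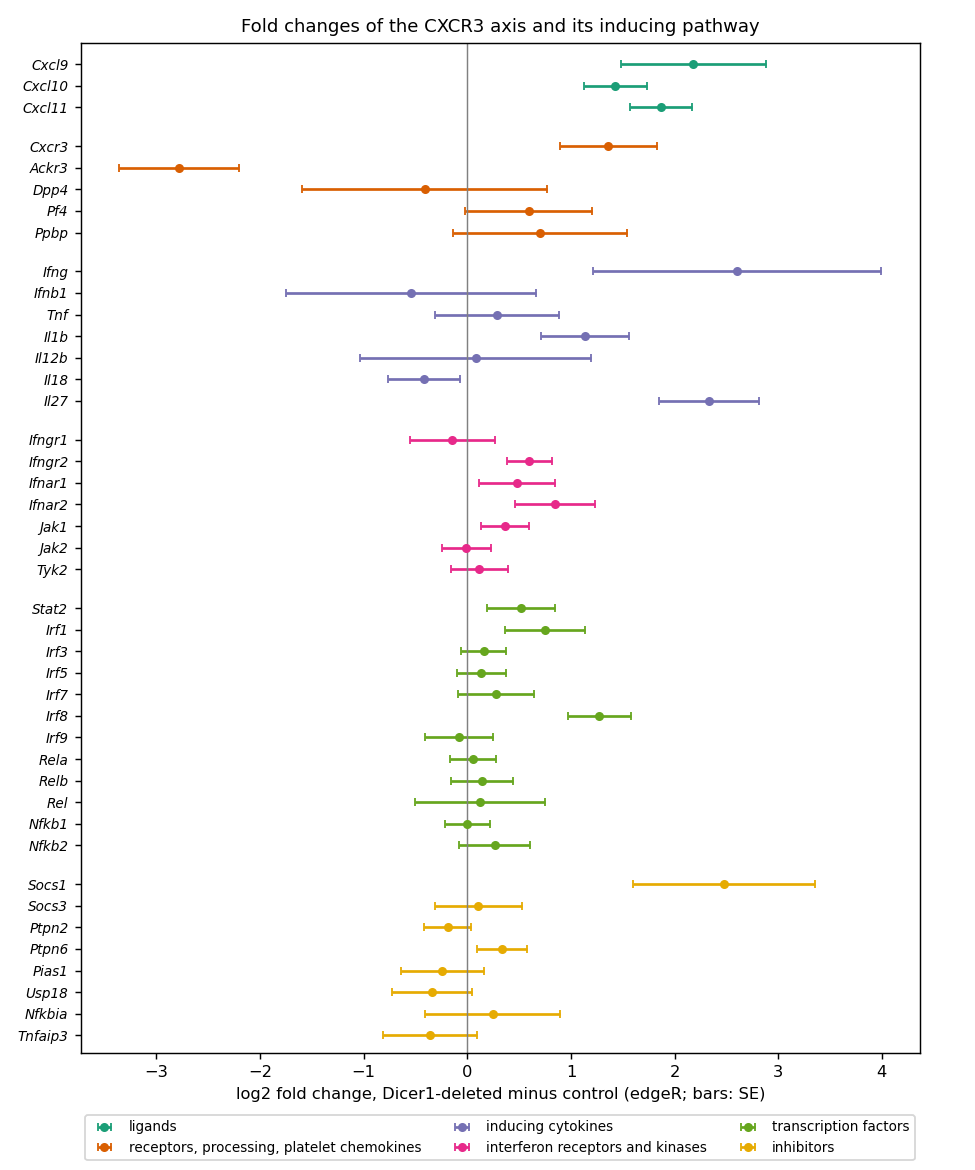
Log2 fold changes (Dicer1-deleted minus control, edgeR) with SE bars for the 3 ligands and for the genes described from 5 lists, colored by role, with 0 marked by the vertical line. The ligands lie between 1.43 and 2.18, Ackr3 lies lowest at -2.78, and most receptors, kinases and factors lie within 1 of 0.

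Inhibitors of interferon and NF-kB signaling showed no common direction. Of 8 tested, 4 lay above 0, against 52.6% of all genes, and DESeq2 called 0. In edgeR 1 passed an unadjusted p of 0.05 on the higher side, where 3.88% of all genes did. Socs1, which interferon-gamma induces and which blocks the kinases, was that gene, with 0.830, 2.54 and 0.171 CPM with Dicer1 deleted, against 0.0898 to 0.319 CPM in controls (log2 fold change 2.48 ± 0.88, DESeq2 adjusted p = 0.136), and DESeq2 called it without Dicer1-deleted replicate 3 (3.05, adjusted p = 0.0210). Socs3, Ptpn2, Ptpn6, Pias1 and Usp18 had 0.10 ± 0.42, -0.19 ± 0.22, 0.33 ± 0.24, -0.24 ± 0.40 and -0.34 ± 0.39. The NF-kB inhibitors Nfkbia and Tnfaip3 had 0.24 ± 0.65 and -0.36 ± 0.46. Of 7 factors that control the decay of inflammatory transcripts, Khsrp, which promotes decay, had groups that did not overlap (0.69 ± 0.23, DESeq2 adjusted p = 0.101), and DESeq2 called 0. Over all genes, 3.86% had higher groups without overlap.

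Other targets of interferon-gamma lay on the same side as the ligands, and targets of type I interferon did not lie to one side. Of 42 interferon-gamma targets outside the 3 ligands, 37 were tested and 35 had a log2 fold change above 0, with a median of 0.78, where 52.6% of all genes lay above 0 and their median was 0.03. DESeq2 called 6 of the 37 higher and 0 lower, where it called 0.925% of all genes higher. Of the 37, 10 had groups that did not overlap, all higher, against 3.86% of all genes. The 6 were Serpina3g, the peptide transporter Tap1, Irf8, the ectoenzyme Cd38 and the interferon-inducible GTPases Gbp8 and Tgtp1. Serpina3g had 96.7, 102 and 49.9 CPM with Dicer1 deleted, against 16.3, 18.4, 4.89 and 13.5 CPM in controls. The log2 fold change was 2.64 ± 0.45 (SE, DESeq2 adjusted p = 1.09e-05). Tap1 had 1.21 ± 0.25, Cd38 1.44 ± 0.37, Gbp8 1.64 ± 0.45 and Tgtp1 0.99 ± 0.28. Only Serpina3g and Tap1 of the 6 were called by DESeq2 with each library left out, and the number of calls on the list then ranged from 2, without control replicate 1, to 11, without control replicate 4. Nos2, which makes nitric oxide, had 14.7, 7.23, 6.31 and 98.8 CPM in controls and 16.3, 32.8 and 17.5 CPM in Dicer1-deleted libraries (-0.52 ± 0.90). Ido1 was too low to test, with at most 0.673 CPM.

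Of 32 type I interferon targets, all tested, 19 had a log2 fold change above 0, against 52.6% of all genes, and the median was 0.19. DESeq2 called 0, and 0 had groups that did not overlap. In edgeR 1 passed an unadjusted p of 0.05, where 3.88% of all genes passed on the higher side. With 1 library left out, up to 3 had higher groups without overlap and up to 1 had lower groups without overlap. Without Dicer1-deleted replicate 3 DESeq2 called 1, Zbp1, a sensor of nucleic acids, higher (1.65, adjusted p = 0.00234). Ifit1 and Rsad2, antiviral effectors that answer strongly to type I interferon, had -0.83 ± 0.65 and -0.31 ± 0.51. Control replicate 3, the library with the least Cxcl9, had the highest Rsad2 and Ifit1 levels of all libraries, at 174 and 142 CPM. Its mean centred log2 CPM over the type I list was 0.66, the highest of the 7 libraries, and over the interferon-gamma list -0.87, the lowest. The test of a difference between the 2 lists was not made.

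**Figure D4:**
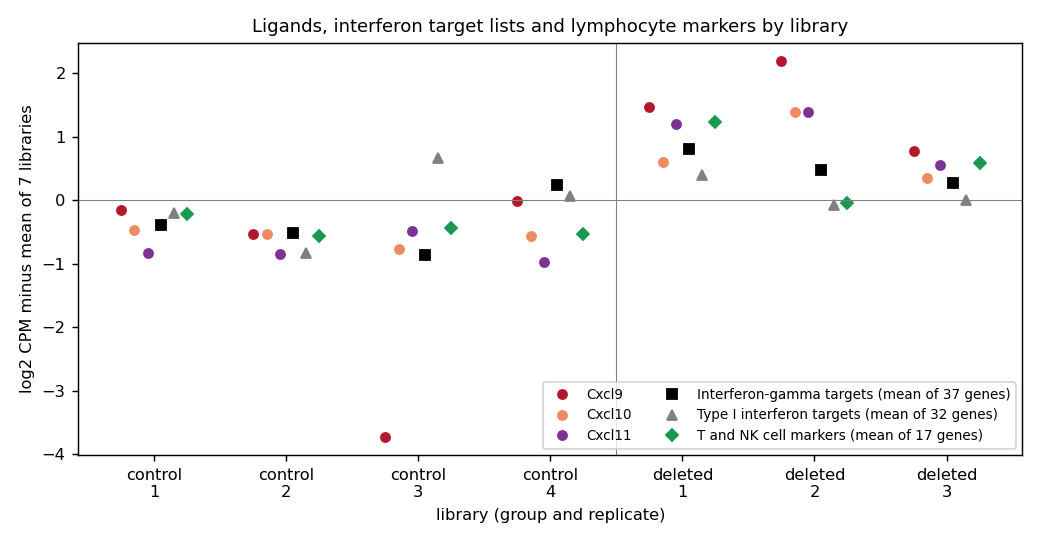
Log2 CPM minus the mean over the 7 libraries for each ligand (circles) and, as means over tested genes, for interferon-gamma targets (squares), type I interferon targets (triangles) and T and NK cell markers (diamonds), by library. In control replicate 3 Cxcl9 (-3.72) and the type I targets (0.66) lie apart, and in Dicer1-deleted replicate 2 the ligands (1.39 to 2.18) lie above the T and NK markers (-0.04). Dicer1-deleted replicate 2 was the library least like the others across genes.

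Transcripts of other cell types differed between the groups in the same libraries. In bulk RNA, fewer cells of a type and less RNA per cell cannot be told apart. Of 23 T and NK cell markers, 17 were tested, with 13 above 0, 4 below and a median log2 fold change of 1.41. Over all genes, 52.6% lay above 0, and DESeq2 called 0.925% higher and 1.57% lower. The summed level of the list was 41.6 to 86.8 CPM with Dicer1 deleted, against 19.3 to 39.1 CPM in controls. DESeq2 called Cxcr6 (4.77, 1.78 and 3.54 CPM against 0.182 to 1.17 CPM) and Nkg7 higher and Cd2 lower, and with 1 library left out it called from 0 of the list higher, without Dicer1-deleted replicate 1, to 3, without Dicer1-deleted replicate 2. Klrk1, the activating receptor NKG2D, was the largest single part of the summed level in each Dicer1-deleted library. It had 50.6, 52.5 and 20.7 CPM against 1.57 to 19.0 CPM (DESeq2 adjusted p = 0.0528), and DESeq2 called it higher without Dicer1-deleted replicate 3 or control replicate 3. Cd3e, a chain of the T cell receptor complex, had 0.291, 0.661 and 0.427 CPM with Dicer1 deleted, against 0.168 to 0.404 CPM in controls, with overlap. Cd3g, another chain of that complex, had 1.29, 1.63 and 1.66 CPM against 0.0898 to 0.729 CPM, without overlap (1.77 ± 0.67, DESeq2 adjusted p = 0.199), and Cd247 also did not overlap (1.41 ± 0.82). Cd3d and Lck had 0.18 ± 0.94 and 0.11 ± 0.62. Below 0, beside Cd2, lay Cd4 (-1.65 ± 0.99), Klrd1 (-0.74 ± 0.82) and Klrb1c (-0.72 ± 1.08). Cd8a had 2.20, 0.610 and 2.18 CPM against 0.293 to 0.766 CPM (1.79 ± 0.60, DESeq2 adjusted p = 0.112), and DESeq2 called it without Dicer1-deleted replicate 2 (2.19, adjusted p = 0.0281). The NK cell receptor Ncr1 was at 0 in 5 of 7 libraries and at most 0.332 CPM. In Dicer1-deleted replicate 2, with the most ligand transcript, the centred mean of this list was -0.04, against 1.23 and 0.58 in the other Dicer1-deleted libraries. That library was least like the others across genes. The part of these cells in the ligand levels was not tested.

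B cell markers summed to 144 to 187 CPM with Dicer1 deleted, against 40.8 to 77.5 CPM in controls. Of 4 tested, DESeq2 called Bank1, Ighm and Cd79b higher, while Pax5 was at 0 in 6 of 7 libraries. Over all genes DESeq2 called 0.925% higher and 1.57% lower. Of 12 dendritic cell markers tested, a cell type that also makes CXCR3 ligands, DESeq2 called Xcr1 (5.27, 2.64 and 5.51 CPM against 0.474 to 1.50 CPM) and Batf3 higher and Ccr7 lower, and Cd209a lower without control replicate 2 or 4. Their sum was 113 to 174 CPM with Dicer1 deleted, against 109 to 264 CPM in controls. Endothelial markers summed to 43.3 to 77.1 CPM against 8.08 to 24.4 CPM, with 69.6, 39.8 and 36.3 CPM of it from Pecam1 with Dicer1 deleted and 3.23 to 11.9 CPM in controls (log2 fold change 2.57 ± 0.46), a gene that leukocytes also carry, while Emcn and Tek were at 0 in 6 and 5 of 7 libraries. Neutrophil markers summed to 254 to 315 CPM against 177 to 626 CPM, with Mmp8 called higher (1.34 ± 0.31), Csf3r without overlap (0.89 ± 0.30), and Ly6g at 0 in 6 of 7 libraries. Mmp9 lay the other way, at 75.0, 81.4 and 97.1 CPM against 52.0 to 537 CPM (-1.66 ± 0.69, DESeq2 adjusted p = 0.218). DESeq2 called Mmp9 lower without control replicate 2 (-1.97, adjusted p = 0.0140) and Csf3r higher without control replicate 3 (1.18, adjusted p = 0.00903). Fibroblast markers (20.1 to 29.4 against 16.4 to 34.1 CPM) and carcinoma cell markers (5.59 to 9.09 against 1.75 to 13.2 CPM) had no DESeq2 call. Of 13 macrophage markers 1 was called, Lyz2, which fell by 1.29 on the log2 scale (SE 0.32, DESeq2 adjusted p = 0.0144) and which is the locus that holds the Cre. Among these calls, those of Ighm, Cd79b, Batf3, Ccr7 and Lyz2 were lost without at least 1 library. The part of each of these cell types in the ligand levels was not tested.

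The 3′ ends of the 3 ligand transcripts were searched for microRNA sites, because Dicer1 makes microRNAs. Matches to bases 2 to 8 of 20 microRNAs of myeloid cells were searched in the annotated 3′ UTRs, of 2452 nt in Cxcl9, 729 nt in Cxcl10 and 1218 nt in Cxcl11. Cxcl9 had 1 match each for miR-21a-5p, miR-16-5p and miR-29a-3p, Cxcl10 had 1 for miR-223-3p, and Cxcl11 had 1 for miR-142a-3p and 2 for miR-27a-3p. Sites for microRNAs that are abundant in myeloid cells are printed with the mature microRNA from RefSeq (GRCm38.p6). Capitals mark the seed in the microRNA and its match in the transcript.
miR-21a-5p: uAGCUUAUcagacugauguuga
Cxcl9 site, chr5:92322330-92322356, minus strand: atctagaaacATAAGCTtacatggaag
miR-223-3p: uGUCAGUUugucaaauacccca
Cxcl10 site, chr5:92346638-92346660, minus strand: aagtaataatAACTGACatgaaa
miR-142a-3p: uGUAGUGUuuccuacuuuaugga
Cxcl11 site, chr5:92360323-92360349, minus strand: actagtaagaACACTACtgtttgtttc
Windows of equal length at the start of other 3′ UTRs held a match at a share of 11.83% for miR-21a-5p, 4.445% for miR-223-3p and 5.342% for miR-142a-3p, and of 37.09%, 22.97% and 15.41% for miR-16-5p, miR-29a-3p and miR-27a-3p. None of the 3 ligands had a match for let-7a-5p or miR-155-5p. In the search no microRNA of the 20 had a match in more than 1 ligand. The match in Cxcl10 lies at position 717 of its 3′ UTR, next to the end of the transcript. MicroRNA levels are not part of the measurements used here, and no test tied these sites to the fold changes. The pentamer ATTTA, found in unstable transcripts, occurred 3, 2 and 1 times in Cxcl9, Cxcl10 and Cxcl11, and 66.14%, 31.75% and 74.8% of equal windows hold as many.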

How the data were processed

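RNA-seq was deposited for 7 libraries of sorted F4/80+ tumor macrophages, 3 Dicer1-deleted and 4 control. Per the labels' protocols, cDNA was amplified with the SMARTer ultra low kit and libraries were made with Nextera XT, which keep no strand. The submitters' processing notes name Bowtie2 without a version. How reads were counted, and on which build and annotation, is not given in the sources used here. Per the file headers, the authors deposited for each gene the count of uniquely placed reads, an expected count that adds fractional shares of multiply placed reads, and RPKM values. All unique counts were even, as they are when each mate counts as 1 read. The RPKM values, normalized by the authors with totals and lengths that are not stated, were used for levels between genes and not tested.

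Depth was 43.0 to 51.2 M unique reads, and the biological coefficient of variation of 45.1% limits precision more than depth does. Reads carry no molecular identifiers, and counting errors therefore cover reads and not molecules. Unlisted values were set to 0. The main fit used edgeR 4.0.16 (R 4.3.3) on unique counts: genes were kept by filterByExpr (16226), libraries scaled by TMM, and groups compared by a quasi-likelihood F test without covariates and Benjamini-Hochberg adjustment at 0.05 over all genes. DESeq2 1.42.0 on the same genes, limma-voom (limma 3.58.1), other scalings and filters, the L code as covariate, multiply placed reads (rounded), read pairs and leaving out each library were alternatives, and DESeq2 with each library left out was added after its calls were seen to differ from those of edgeR. Log2 fold changes are Dicer1-deleted minus control. Ratios between ligands and single values were compared by exact permutation over libraries. The fit was tested on simulated data. Tables and permutation tests were made with pandas 2.3.3, scipy 1.17.1 and numpy 2.4.6 under Python 3.11.15.

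The members and the 18 gene lists were chosen with earlier results of these data known, and the microRNAs and motifs after the values were seen, so their counts are descriptions. Named were the ligands, Dicer1, the measured genes of the 5 pathway lists, up to 4 members of each other list with a mean of at least 1 CPM and groups that do not overlap, a few genes fixed by name (Nos2, Ido1, Cd3e, Cd8a, Ncr1), the 5 genes most like each ligand and the genes within 100 kb. Tap1, Tgtp1, Ifit1, Rsad2, Adgre1, Csf1r, Cd3g, Cd247, Cd3d, Lck, Cd4, Klrd1, Klrb1c, Mmp9, Cxcl5, Cd209a, Zbp1, Cd274, Acod1 and markers at 0 are named outside that rule, after their values were seen. A few genes that these rules would name are not reported here, and counts over lists include them.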

Additional observations from a re-analysis of the deposited data

Results flagged for a closer look

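The levels of 3 genes in control replicate 4 stood far from those in the other controls. Ifng, the classical inducer of the ligands, had 0.365 CPM there, against 0 to 0.0449 CPM in the other 3 control libraries. Tnf, another inducer of the ligands, had 118 CPM there, against 25.0 to 38.4 CPM. Nos2, an interferon-gamma target, had 98.8 CPM there, against 6.31 to 14.7 CPM. The ligands were not marked, with Cxcl9 at 111, Cxcl10 at 217 and Cxcl11 at 2.42 CPM in that library. The gap between the highest or lowest control and its neighbour was checked for 85 tested genes named by rule, where chance marks about 1 in 20, and 3 were marked.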

How the results depend on the processing

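The direction of the 3 ligands was higher in Dicer1-deleted libraries under every alternative run. In edgeR the log2 fold change without 1 library was 1.74 to 2.46 for Cxcl9, 1.05 to 1.63 for Cxcl10 and 1.68 to 2.08 for Cxcl11. DESeq2 gave 2.21, 1.46 and 1.90 and called all 3, and without 1 library 1.75 to 2.50, 1.06 to 1.67 and 1.70 to 2.11. Without a filter on low counts edgeR called Cxcl11 (1.88, adjusted p = 0.0480). Under a filter of 10 CPM in 3 libraries Cxcl11 was not tested. The Cxcl11 to Cxcl9 log2 ratio difference went from -1.18 to 0.22 over the libraries left out, and 0.22 was the value without control replicate 3.

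The tools differed most in the number of genes called higher and lower. These were 1 and 3 in edgeR, 150 and 255 in DESeq2, 24 and 18 in edgeR without a filter, 0 and 1 with the filter of 10 CPM, and 0 and 0 with the L code as covariate, while limma-voom called 0 higher. Without 1 library edgeR called 0 to 1 higher and 0 to 2 lower, and DESeq2 88 to 158 higher and 149 to 260 lower. The cause of these differences was not tested. Over all genes the median log2 fold change stayed between -0.03 and 0.05 over all settings.

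No paired analysis was possible because the labels give the groups no shared replicate numbers. With 3 and 4 libraries the exact test cannot go below 0.0571, Cxcl11 rests on few reads, and the strand of reads in the overlap with Art3 is unknown.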

Other observations

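Control replicate 4 had the highest control values of 2 macrophage activation genes that the comparison of all 7 libraries leaves uncalled. Cd274, which encodes the checkpoint ligand PD-L1, was at 367 CPM there against 45.2 to 97.6 CPM in the other controls, and DESeq2 called it higher without that library (1.79, adjusted p = 0.00124). Acod1, the itaconate-producing enzyme, was at 164 CPM against 14.1 to 40.1 CPM. These genes were chosen after their values were seen. The mean centred log2 CPM over the 37 interferon-gamma targets was 0.24 in that library, near the 0.28 of Dicer1-deleted replicate 3. Cxcl9 had 111 CPM there, its highest control value, against 8.50 to 101 CPM in the other controls. Cxcl10 and Cxcl11 had 217 and 2.42 CPM there, within or below the range of the other controls.

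Ccr7 and Cd209a, genes of dendritic cells, were highest in control replicate 3, at 25.2 and 109 CPM, against 1.62 to 8.01 and 2.51 to 38.1 CPM in the other controls. That library had the least Cxcl9 and the most Cxcl13, at 8.50 and 26.4 CPM.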
